A study of Rattus norvegicus with 52 samples.

Results

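Hox genes encode homeodomain transcription factors that give cells their position along the head-to-tail axis, and they lie in 4 chromosomal clusters named A to D. Within a cluster, genes of low paralogue number act toward the head and genes of high number toward the tail, and genes of the same number in different clusters are descended from a common ancestor. Adult fibroblasts and smooth muscle cells are known to keep a Hox pattern of the site they came from. The carotid arteries form from the third pharyngeal arch, where genes of paralogue group 3 act in mouse embryos. Members were every row of the count table whose symbol was Hox, a cluster letter and a paralogue number. There were 33 such rows among 22081, with 5 in HoxA, 10 in HoxB, 9 in HoxC and 9 in HoxD.

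The counts came from 52 single-cell libraries of 3 male Sprague Dawley rats, labelled 7 weeks old, with 5 cells of rat 1, 23 of rat 2 and 24 of rat 3. Every rat carried a surgical aneurysm model, in which the left common carotid artery was joined end-to-side to the right one, the left renal artery was tied, and the chow held salt and 3-aminopropionitrile, an inhibitor of lysyl oxidase. Cells that had taken up DiI-containing nanoparticles were cut out by laser and are labelled as macrophages. There was 1 group, no control artery was analysed here, and the labels do not say which side of the new bifurcation a cell came from. The rat was the replicate, so values are means of cells within a rat and then over rats. With 1 group there was nothing to test between conditions, and no p-value is given. Differences are set against the SD over 3 rats.

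Libraries held 1538 to 84848 counts (median 15068) and 384 to 5417 genes (median 2690). The median number of genes per cell was 2623 in rat 1, 1486 in rat 2 and 3506 in rat 3. The labelled cell type was mixed in its markers. A macrophage marker reached 5 or more counts in 27 cells, a fibroblast marker in 34 and a smooth muscle marker in 17. The markers found in most cells were Fcgr3a (35 cells), Mrc1 (33) and Cybb (16) for macrophages, Pdgfrb (48), Col1a1 (33) and Fbln1 (33) for fibroblasts, and Mylk (39), Acta2 (35) and Myocd (22) for smooth muscle. For other cell types they were Kdr (36), Nos3 (28) and Vwf (16) of endothelium, Lep (22), Plin1 (19) and Adipoq (16) of adipocytes, Mbp (15), Sox10 (11) and Ngfr (9) of Schwann cells and neurons, and Myog (7), Myod1 (4) and Pax7 (4) of skeletal muscle. Summed counts per cell ran from 0 to 1410 for 21 macrophage markers, from 0 to 733 for 11 fibroblast markers and from 0 to 179 for 12 smooth muscle markers. The part of such a mixture in the Hox counts was not tested.

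The windows around an annotated start of Hoxd13, Hoxc4 and Hoxa7, each of 300 bases, are shown beside unlike numbers of cells with a count. They are from RefSeq on build GRCr8, 250 bases before to 50 after an annotated start, 5′ to 3′ on the gene's strand, with each CG dinucleotide in capitals. Dense CG dinucleotides are typical of Hox promoters. Hoxd13 (chr3:79977827-79978126, plus strand) was found in 27 cells, Hoxc4 (chr7:136048809-136049108, plus strand) in 21 cells and Hoxa7 (chr4:82648192-82648491, minus strand) in 0 cells.
Hoxd13: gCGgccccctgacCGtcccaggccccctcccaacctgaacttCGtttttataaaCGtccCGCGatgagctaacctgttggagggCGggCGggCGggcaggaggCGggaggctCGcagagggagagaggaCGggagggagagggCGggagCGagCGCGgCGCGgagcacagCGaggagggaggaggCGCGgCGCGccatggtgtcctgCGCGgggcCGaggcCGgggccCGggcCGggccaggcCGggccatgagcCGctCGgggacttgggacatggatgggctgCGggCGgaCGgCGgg
Hoxc4: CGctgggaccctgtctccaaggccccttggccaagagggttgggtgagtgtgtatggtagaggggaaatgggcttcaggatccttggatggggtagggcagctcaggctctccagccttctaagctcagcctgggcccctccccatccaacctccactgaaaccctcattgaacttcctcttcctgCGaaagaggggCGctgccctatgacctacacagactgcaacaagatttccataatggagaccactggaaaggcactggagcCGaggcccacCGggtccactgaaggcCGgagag
Hoxa7: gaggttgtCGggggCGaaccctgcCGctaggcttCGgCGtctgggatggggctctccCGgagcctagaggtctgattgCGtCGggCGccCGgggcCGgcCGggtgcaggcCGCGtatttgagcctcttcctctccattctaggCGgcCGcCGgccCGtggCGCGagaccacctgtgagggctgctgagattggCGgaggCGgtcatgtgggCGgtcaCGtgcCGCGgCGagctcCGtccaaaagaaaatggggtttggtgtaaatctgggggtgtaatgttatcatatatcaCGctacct

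The window of Hoxd13 held 36 CG dinucleotides, that of Hoxc4 6 and that of Hoxa7 29. Of the 33469 such windows in the reference table, there called promoters, 5.43% held at least 36, 56.3% at least 6 and 11.5% at least 29. The table matched 15 of the 33 members by symbol, whose windows held 6 to 49 CG dinucleotides (median 25), against a median of 7 over all promoters. The 9 members with 20 or more were found in a median of 6 cells (range 0 to 27). The 6 members with 6 to 19 were found in a median of 13 cells (range 2 to 24), so the ranges overlapped. These are medians of cells, whereas the values of other genes that follow are mean percents of cells. The measures differ, so Hox genes cannot be set against other genes by these values. Among other genes of the count table, those with 20 or more CG dinucleotides were found in 17.5% of cells on average (6021 genes), those with 6 to 19 in 13.8% (4712 genes) and those with fewer in 9.28% (2878 genes). A CG count describes the sequence and says nothing of which start was used. Whether transcription begins at the annotated starts was not tested, so a window may not be the promoter.

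Hox genes were found often and at low counts. A gene is called found in a cell at 1 or more counts. Of 1716 gene and cell pairs, 348 held a count. There was 1 count in 183 of these pairs, 2 counts in 97, 3 or 4 counts in 51 and 5 or more in 17. All members together had 707 counts. A cell held 20.1% ± 7.12 of the 33 members (SD, n = 3 rats), at 20.0% in rat 1, 13.0% in rat 2 and 27.3% in rat 3. All other genes of the table stood at 12.5% ± 3.88. The difference of 7.56 ± 3.59 percentage points was positive in 3 of 3 rats, at 6.20, 4.85 and 11.6 points in rats 1, 2 and 3. It was 4.39 ± 2.77 points in the 40 cells with at least 10000 counts, each set to a common depth of 10000 counts. That setting left out 12 cells, so the cells and the depth changed together. The difference was 2.86 ± 2.54 points among genes found in at least 3 cells, which 29 of the members were (SD, n = 3 rats). Of the members, 32 were found in at least 1 cell, against 84% of all genes. The counts at stricter limits were 21 members in at least 5 cells (background 43%), 14 in at least 10 cells (background 20.7%), 7 in at least 20 cells (background 6.95%) and 2 in at least 26 cells (background 4.16%). As shares of the members these were 63.6%, 42.4%, 21.2% and 6.06%.

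The lead over other genes depended on the count required. At 2 or more counts the members stood at 9.25%, against 6.88% of all other genes. The difference of 2.38 ± 2.92 points (SD, n = 3 rats) was positive in 3 of 3 rats but smaller than its spread. At 3 or more counts they stood at 3.69%, against 3.58%, a difference of 0.110 ± 1.77 points. It was negative in rats 1 and 2 (-1.50 and -0.174 points) and positive in rat 3 (2.00). At 5 or more counts the members stood lower, at 1.04% ± 0.705 per cell, against 1.99% ± 0.786 of all other genes (SD, n = 3 rats). That difference of -0.956 ± 0.496 points was negative in 3 of 3 rats. There were 12 members with 5 or more counts in any cell, which is 36.4% of them, against a background of 27.4%. There were 3 members with 10 or more counts in any cell, which is 9.09%, against a background of 16.3%. Of Hox pairs with a count, 95.1% held fewer than 5, and of pairs of all other genes with a count, 85.6% did.

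**Figure D1:**
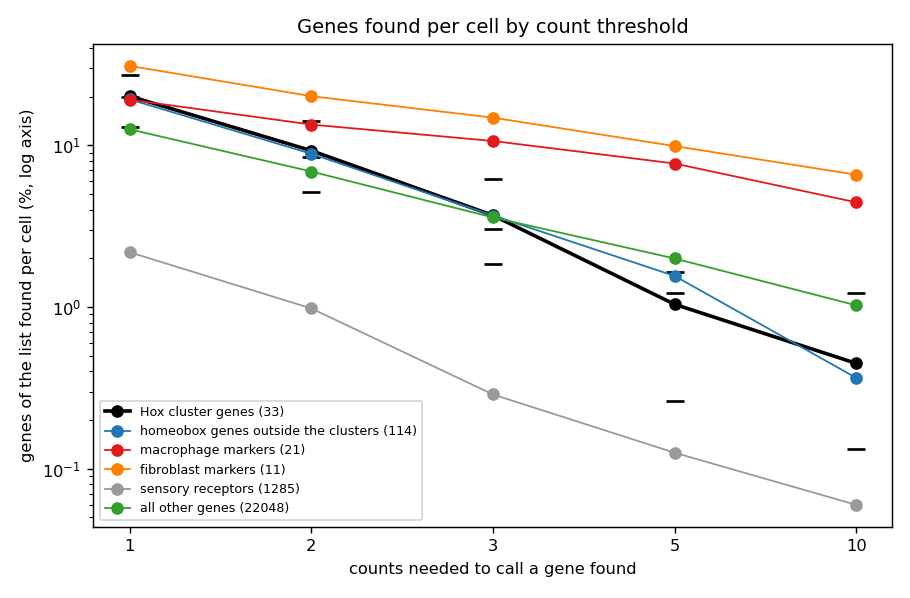
Percent of a list's genes found per cell (log axis) against the counts needed to call a gene found; lines are means of 3 rats, dashes are the values of single rats for Hox genes, and a rat at 0 is not drawn. The Hox line starts at 20.1%, above all other genes at 12.5%, and lies at 1.04% for 5 counts, below all other genes at 1.99%.

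At 1 or more counts, Hox genes were close to homeobox genes that lie outside the clusters. These 114 genes of a chosen list encode regulators of many organs. A cell held 20.1% of the Hox genes and 19.2% of the homeobox genes outside the clusters, a difference of 0.896 ± 1.28 points (SD, n = 3 rats). It was positive in rats 1 and 3 (1.75 and 1.51 points) and negative in rat 2 (-0.572), so it was smaller than its spread between rats. At 5 or more counts the Hox genes stood at 1.04% and the homeobox genes outside the clusters at 1.56%. That difference of -0.517 ± 0.454 points (SD, n = 3 rats) was negative in every rat, at -0.367, -0.156 and -1.03 points in rats 1, 2 and 3. Pou4f1, a factor of sensory neurons, was found in 42 cells, Irx1 in 37 and Lhx2 in 36, each more often than any Hox gene. The 15 ParaHox and extended Hox genes, which are the nearest relatives of the clusters, stood at 15.9% ± 7.62 and were led by Gbx1 (32 cells), Pdx1 (19 cells), the pancreas factor, and Cdx2 (18 cells), the intestine factor. Sensory receptor genes, which nasal and taste cells use, stood at 2.18% ± 0.951, and keratin genes of epithelia at 6.93% ± 2.96 (SD, n = 3 rats). The receptor genes found in most cells were Olr505 (25 cells), Olr1576 (24) and Olr1108 (18), and the keratin genes Krt222 (11), Krt2 (10) and Krt77 (7). Counted by gene, 21 of 33 Hox genes and 77 of 114 homeobox genes outside the clusters were found in at least 5 cells, and 14 of 33 and 46 of 114 in at least 10 cells.

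The number of Hox genes found moved with the number of all genes found in a cell. The number of Hox genes found per cell was 0 to 16, with a median of 6.5. The 2 cells with 0 belonged to rat 2 and had 552 and 871 genes. Rat 3 cell 41, with 16 Hox genes, had 4783 genes. In the 21 cells with fewer than 2000 genes, 0 to 7 Hox genes were found (median 2). In the 16 cells with at least 2000 and fewer than 3500 genes the number was 3 to 13 (median 7.5), and in the 15 cells with 3500 or more it was 7 to 16 (median 11). The first of these ranges held 17 cells of rat 2 and 3 of rat 3, the middle range 5 and 9, and the last 1 and 12. Depth and rat thus went partly together, and their parts were not tested. As a share of all genes found in a cell, Hox genes made up a median of 0.202%, 0.263% and 0.255% in the 3 ranges, while they were 0.149% of the table's rows.

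**Figure D2:**
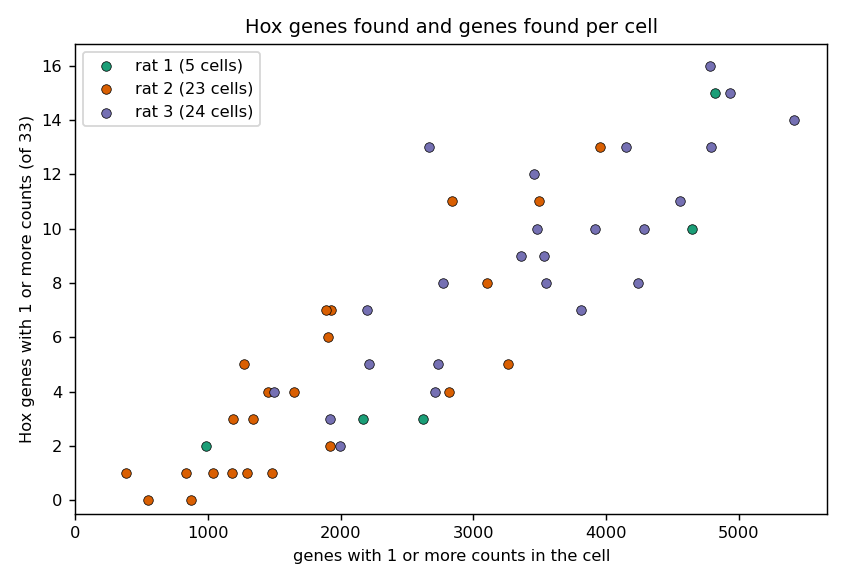
Number of Hox genes found (of 33) against the number of genes found in the same cell, 1 point per cell, coloured by rat. Cells with more genes hold more Hox genes, from 0 in the cells with 552 and 871 genes to 16 in a cell with 4783.

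The clusters differed in order. HoxD genes were found most often, at 28.9% ± 7.66 of members per cell, then HoxC at 23.2% ± 9.05, HoxB at 15.2% ± 7.82 and HoxA at 8.50% ± 3.87 (SD, n = 3 rats). HoxD exceeded HoxA by 20.4 ± 6.07 points, HoxB by 13.7 ± 2.82 and HoxC by 5.76 ± 1.74, each in 3 of 3 rats. HoxC exceeded HoxB by 7.91 ± 4.27 points in 3 of 3 rats. HoxB and HoxA were equal in rat 1, at 12.0% each, and HoxB was higher in rats 2 and 3. With the 40 cells of at least 10000 counts set to that depth, the order was the same, at 19.3%, 15.6%, 9.67% and 5.53%. HoxD minus HoxC was then 3.75 ± 3.87 points, no larger than its spread. At 5 or more counts the means kept this order, at 1.23%, 1.20%, 1.10% and 0.278%, but no single rat did. HoxD then stood at 0% in rats 1 and 2 and 3.70% in rat 3, HoxC at 2.22%, 0% and 1.39% in rats 1, 2 and 3, HoxB at 2.00%, 0.870% and 0.417%, and HoxA at 0%, 0% and 0.833%. In HoxA the table had rows for 5 genes; Hoxa3, Hoxa5, Hoxa6, Hoxa9, Hoxa10 and Hoxa11 were not analysed here under those symbols, so the HoxA value rests on few genes. A pair of rows named Hoxa11_1 and Hoxa11_2, outside the rule, were found in 21 and 2 cells, with at most 3 and 2 counts. With these 2 rows HoxA stood at 12.2% ± 4.68 over 7 genes (SD, n = 3 rats). The place of HoxA in single rats is given for the 5 member rows only.

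Position along the clusters gave small differences, whose size against the spread changed when the deeper cells alone were set to a common depth. Anterior genes (paralogue groups 1 to 3, 7 genes) stood at 19.0% ± 7.34, central genes (groups 4 to 8, 13 genes) at 20.5% ± 11.2 and posterior genes (groups 9 to 13, 13 genes) at 20.3% ± 5.42 (SD, n = 3 rats). Posterior minus anterior was 1.26 ± 4.77 points, negative in rat 1 and positive in rats 2 and 3, and central minus anterior was 1.43 ± 11.7 points. With the 40 cells of at least 10000 counts set to that depth, posterior minus anterior was 2.00 ± 1.57 points and positive in 3 of 3 rats. It was 0.229, 3.20 and 2.58 points in rats 1, 2 and 3. Central minus anterior was then 3.56 ± 5.39 points (SD, n = 3 rats). Single groups ranged more widely. Group 8 (3 genes) stood at 32.9% ± 19.7, group 3 (2 genes) at 31.0% ± 10.4 and group 4 (4 genes) at 29.0% ± 16.2, while group 7 (2 genes) stood at 6.17% ± 3.32 and group 6 (2 genes) at 2.87% ± 3.33. Position and cluster were mixed: posterior HoxD genes (5 genes) stood at 31.6% ± 5.30, posterior HoxC genes (5 genes) at 17.8% ± 8.08, and posterior genes of HoxB (2 genes) and HoxA (1 gene) at 5.62% ± 6.35 each. Posterior HoxD exceeded posterior HoxC by 13.7 ± 5.03 points in 3 of 3 rats.

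**Figure D3:**
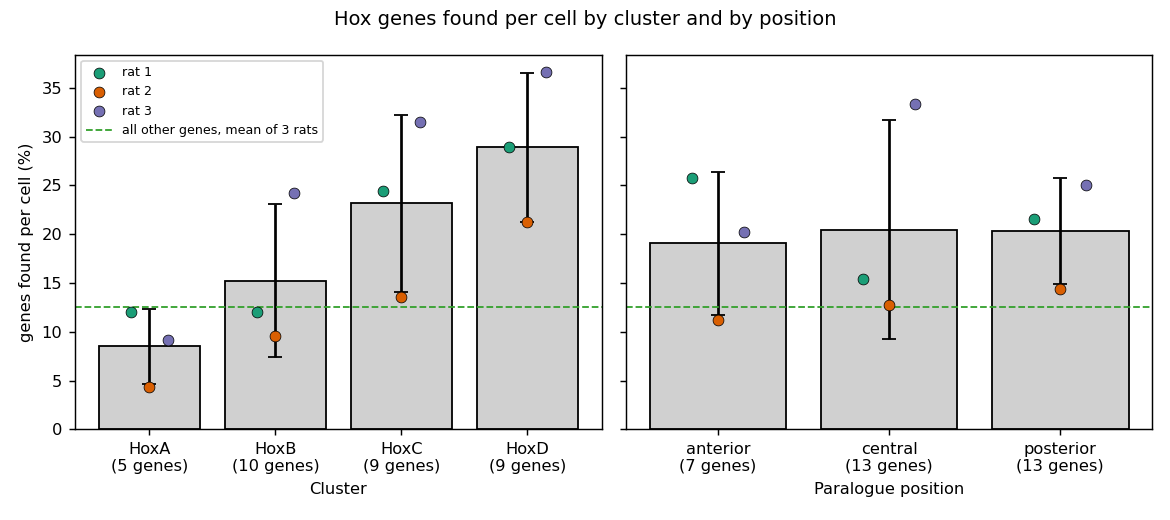
Percent of Hox genes found per cell by cluster (left) and by paralogue position (right); bars are means and error bars SDs of 3 rats, points are rats, and the dashed line is the mean of all other genes, 12.5%. HoxD is highest and HoxA lowest or equal lowest in every rat, while the 3 positions overlap. The rows Hoxa11_1 and Hoxa11_2 are not included.

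Members also varied within each cluster, and neighbours on the chromosome could be far apart. Hoxd10 was found in 3 cells between Hoxd9 in 12 and Hoxd11 in 16. Hoxc6 was found in 3 cells between Hoxc5 in 15 and Hoxc8 in 27, and Hoxc11 (2 cells) and Hoxc12 (4 cells) lay between Hoxc10 (19 cells) and Hoxc13 (11 cells). In HoxB the frequent genes were Hoxb2 (13 cells), Hoxb3 (23 cells) and Hoxb4 (20 cells), with 1 to 9 cells for the other 7. Of adjacent members in the table, Hoxd12 and Hoxd13 were found together in 17 cells and at least 1 of them in 34. Hoxd4 and Hoxd8 were found together in 14 of 28 cells with either, Hoxb3 and Hoxb4 in 11 of 32, and Hoxd11 and Hoxd12 in 11 of 29. These were the pairs most often found together. Some adjacent members were never found together, among them Hoxc6 and Hoxc8 (0 of 30 cells) and Hoxb7 and Hoxb8 (0 of 14). The part of a cell's depth in joint finding was not tested.

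**Figure D4:**
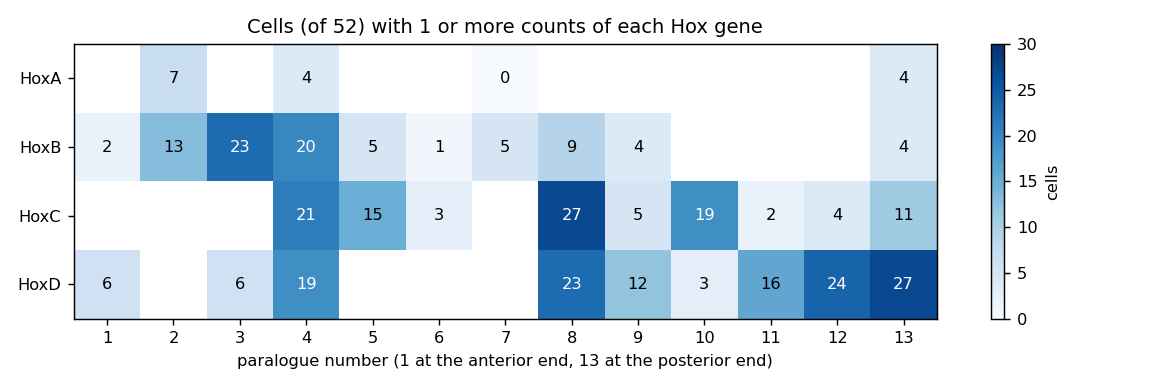
Number of cells, of 52, with 1 or more counts of each Hox gene, with clusters as rows and paralogue numbers as columns; blank squares are not shown or have no row. Counts run from 0 for Hoxa7 to 27 for Hoxc8 and Hoxd13, and high and low squares stand side by side in every cluster but HoxA.

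The most frequent member with Hoxc8 was Hoxd13, which patterns digits and genitalia in mouse embryos. It had a count in 27 cells, which is 51.9% with an exact 95% binomial interval of 37.6% to 66.0%. These were 3 of 5 cells in rat 1, 9 of 23 in rat 2 and 15 of 24 in rat 3. It had 0 to 8 counts per cell (median 1), with 12 cells at 1 count, 5 at 2, 6 at 3 or 4 and 4 at 5 or more. The counts were thus spread over cells of all rats, and the highest cell held 11.8% of its 68 counts. Such intervals cover counting error only and treat cells as independent. Hoxc8, which sets the identity of thoracic vertebrae in mice, was also found in 27 cells, with 0 to 26 counts (median 1). It was found in 2 of 5 cells in rat 1, 8 of 23 in rat 2 and 17 of 24 in rat 3. Rat 1 cell 4 held 26 of its 78 counts, and in the other cells the highest value was 5. Without that cell 52 counts remained.

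Hoxd12, a limb gene, was found in 24 cells with 0 to 5 counts, in 1 cell of rat 1, 8 of rat 2 and 15 of rat 3. Hoxb3 was found in 23 cells with 0 to 5 counts, in 2, 7 and 14 cells of rats 1, 2 and 3. It acts in the third pharyngeal arch in mice, and its partner Hoxd3 of the same group was found in 6 cells with at most 2 counts. Hoxd8 was found in 23 cells with 0 to 4 counts, in 1, 8 and 14 cells of rats 1, 2 and 3. Hoxc4 was found in 21 cells with 0 to 5 counts, in 2, 6 and 13 cells of rats 1, 2 and 3, and 12 of its 21 cells held 2 counts. Hoxb4, which promotes growth of blood stem cells in mice, was found in 20 cells, in 2, 3 and 15 cells of rats 1, 2 and 3. Rat 1 cell 5 held 13 of its 47 counts, and the other cells 0 to 4. Hoxd4 and Hoxc10 shared the next place with 19 cells each, with at most 5 and 4 counts. Hoxd4 was found in 1, 3 and 15 cells of rats 1, 2 and 3. Each of these 9 genes except Hoxc10 was found in the largest share of cells in rat 3, the rat with the most genes per cell. Hoxc10 was found in 3 of 5, 6 of 23 and 10 of 24 cells of rats 1, 2 and 3. Set per length, Hoxd12 had 44.6 counts per kb of gene span summed over all cells, Hoxc8 30.4, Hoxd13 20.5, Hoxc4 19.3, Hoxb4 18.2 and Hoxd8 14.8, against 1.58 for Hoxb3 and 1.79 for Hoxd4, whose spans hold long introns. Spans are those of GRCr8, and the annotation used for counting is not given in the sources used here.

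High counts were rare and sat in few cells. There were 17 pairs of a gene and a cell with 5 or more counts, in 11 cells and 12 genes. Hoxb7 held 48 counts in rat 2 cell 13, which was 87.3% of its 55 counts, and at most 2 in the other cells. It was found in 1, 2 and 2 cells of rats 1, 2 and 3. The same cell held 5 counts of Hoxb6, its chromosomal neighbour, and Hoxb6 had 0 counts in every other cell. Rat 3 cell 49, with 6845 counts in all, held 6 of Hoxc5 and 5 of Hoxd9 and no other Hox gene. Hoxc5 was found in 1, 2 and 12 cells of rats 1, 2 and 3, and Hoxd9 in 2, 3 and 7. Rat 3 cell 41 held 5 of Hoxa2, a gene of the second pharyngeal arch, 5 of Hoxb3 and 7 of Hoxd13. Rat 3 cell 40 held 5 of Hoxc4, 5 of Hoxc8 and 8 of Hoxd13. In the other 5 of these cells, all of rat 3, 1 gene reached 5 counts and none more: Hoxd12 in cells 32 and 43, Hoxd13 in cells 33 and 34 and Hoxd4 in cell 37.

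**Figure D5:**
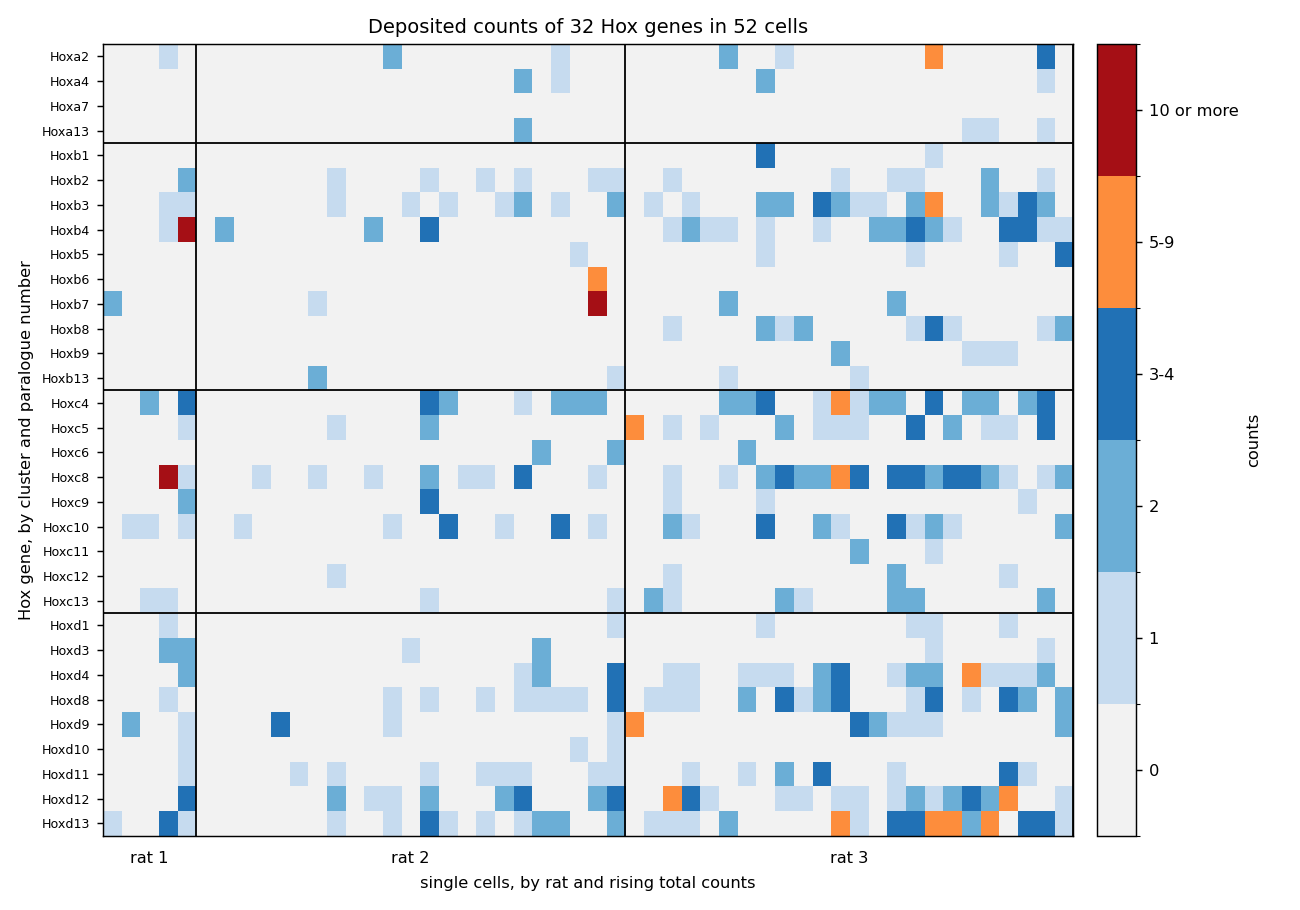
Deposited counts of 32 Hox genes (rows, by cluster) in 52 cells (columns, by rat and rising total counts), in 6 count classes. Most coloured squares hold 1 or 2 counts, and the 3 squares with 10 or more are Hoxb4 and Hoxc8 in rat 1 and Hoxb7 in rat 2.

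These 11 cells differed in their cell type markers, and the part of cell type in the Hox counts was not tested. Rat 1 cell 4, with 26 Hoxc8 counts, held 13 of 21 macrophage markers with 519 counts in all, 2 of 11 fibroblast markers with 18 counts and 3 of 12 smooth muscle markers with 27 counts. Rat 2 cell 13, with 48 Hoxb7 counts, held 11 macrophage markers with 82 counts, 4 fibroblast markers with 20 counts and 3 smooth muscle markers with 7 counts. That cell also held 5 of 11 endothelial markers with 26 counts and 5 of 10 adipocyte markers with 16 counts. Rat 1 cell 5, with 13 Hoxb4 counts, held 4 macrophage markers with 25 counts, 5 fibroblast markers with 20 counts and 7 smooth muscle markers with 32 counts. Over the 8 cells of rat 3, macrophage markers found ranged from 0 to 5 of 21 and fibroblast markers from 3 to 8 of 11.

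The remaining members were sparse. Hoxa7 had 0 counts in all 52 cells, which by a limit of 3 counts over 52 cells allows up to 5.77% of cells with a count of it and does not bound expression. Among the anterior genes not yet described, Hoxb1, a hindbrain gene in mice, was found in 2 cells and Hoxd1 in 6. Hoxa2 was found in 7 cells, in 1, 2 and 4 cells of rats 1, 2 and 3. Among the central genes, Hoxb8 was found in 9 cells, all of rat 3. Hoxb5 and Hoxb7 were found in 5 cells each, Hoxa4 in 4 and Hoxc6 in 3. Among the posterior genes, Hoxc9 was found in 5 cells, and Hoxb9, Hoxb13, a prostate gene, Hoxa13 and Hoxc12 in 4 each. Hoxc13, which hair follicles need in mice, was found in 11 cells with at most 2 counts. Of the 33 members, 19 were found in all 3 rats, for which the share over all genes was not computed. There were 21 members that never had more than 4 counts. The others, 36.4% of the members, reached 5 counts in some cell, against 27.4% of all genes. In GRCr8 the spans of Hoxc4 and Hoxc5 overlap that of Hoxc6, those of Hoxb5 and Hoxb6 overlap the antisense gene Hoxb5os, and that of Hoxa4 overlaps Hoxa3 and Hoxa3l1. The spans of Hoxb3, Hoxd4 and Hoxc11 each overlap a long non-coding RNA gene that has only a locus number, and that of Hoxd4 also overlaps Mir10b and those of Hoxc5 and Hoxc6 Mir615. Whether counting used strand is not given in the sources used here, so counts of these genes are uncertain, as are those of paralogues with near-identical homeobox stretches.

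Genes beside the clusters were found less often than many members. The 3 nearest named protein-coding genes on each side came to 24 genes, of which 21 had a row. They were found in 0 to 17 cells (median 3), against a median of 6 cells for Hox genes and 4 for all other genes. Smug1, a DNA repair enzyme gene beside HoxC, was the most frequent, in 17 cells with at most 3 counts. Hnrnpa1, an RNA-binding protein gene also beside HoxC, had a count in 10 cells and at most 53 counts, and the other 19 in fewer than 10. Evx2, the homeobox gene that adjoins Hoxd13, was found in 5 cells, and Evx1, which adjoins Hoxa13, in 4. Beside HoxD, Lnpk and Mtx2 were found in 2 cells each, with at most 1 and 39 counts. Hibadh, beside HoxA, was found in 3 cells with at most 51 counts, so few cells did not always mean low counts. Thus 14 of 33 Hox genes (42.4%) reached 10 cells, and 2 of 21 neighbours did, against 20.7% of all genes. A further comparison took other genes within the span range of the members, without matching their lengths. Against these 10621 genes, with spans between 1122 and 37923 bases, Hox genes led by 7.08 ± 3.46 points (SD, n = 3 rats). The median span of the members was 2678 bases. Above 10000 and up to 50000 bases there were 4 Hox genes and 7400 other genes. The part of span in the lead was not tested. For spans above 2000 and up to 3000 bases, 15 Hox genes were found in 3.85% to 51.9% of cells with a median of 11.5%, against a median of 5.77% for 585 other genes.

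Genes that work with or upstream of Hox genes were found at like rates. The 9 cofactors of the PBX, MEIS and PKNOX families, which bind DNA together with HOX proteins, stood at 19.5% ± 6.46 per cell, led by Pknox1 (20 cells, up to 34 counts), Pbx2 (18 cells) and Meis2 (18 cells, up to 20 counts). The 21 Polycomb and Trithorax genes, which keep Hox clusters silent or active, stood at 17.6% ± 7.35, led by Kmt2b (35 cells), Phc2 (27 cells) and Kmt2a (14 cells). The 16 measured genes of the retinoic acid pathway, which switches on anterior Hox genes in embryos, stood at 19.4% ± 5.27, led by the receptor Rara (32 cells), the degrading enzyme Cyp26b1 (28 cells) and Rxrb (25 cells). Transcription factors of the pharyngeal arches and neural crest, 15 genes, stood higher at 33.3% ± 9.50, with Foxc1 in 47 cells, Sox9 in 45 and Tfap2b in 29. On the log2(CPM + 1) scale, the mean level was 1.23 ± 0.40 for Hox genes, 1.21 ± 0.34 for homeobox genes outside the clusters and 0.83 ± 0.21 for all other genes (SD, n = 3 rats). By summed counts Hox genes stood lower: they held 0.0677% ± 0.0135 of the counts of a cell (SD, n = 3 rats), against 0.149% of the table's rows.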

How the data were processed

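The table deposited by the authors holds raw counts per gene symbol for 52 cells. Libraries were made with a SMART-Seq Single Cell Plus kit, per the labels' protocols. No source used here names the aligner, counter, build or annotation. Columns were matched to cells and rats by title, 0 were left over, and no 2 columns were identical. The index sheet was not used.

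Found means 1 or more counts. CPM used the column total. Cells were averaged within a rat, then over 3 rats. No test was run: edgeR 4.0.16 (R 4.3.3) gave TMM factors only. Thinning to 10000 counts used the expected share of genes found and left out 12 cells. Depth was 1538 to 84848 counts, no molecular identifiers are recorded, and intervals and the limit for 0 cells (3 counts) cover counting error only.

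Members and lists were chosen with earlier results of these data known. All members enter the list values, and 1 is not reported here by itself. Cell numbers by rat are given for the 8 found in most cells (9 with ties) and for those reaching 5 counts; of each other list, the 3 genes found in most cells are named. Names were matched to RefSeq GRCr8 for 16686 symbols, including all 33 members; neighbours were limited to protein-coding genes. Scripts were tested on simulated data. Python 3.11.15, numpy 2.4.6, pandas 2.3.3, scipy 1.17.1 and matplotlib 3.10.9 were used.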

Additional observations from a re-analysis of the deposited data

How the results depend on the processing

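Alternatives were recomputed for 11 values. At 2 or more counts, Hox genes stood at 9.25% per cell, 2.38 ± 2.92 points above all other genes (SD, n = 3 rats). By part this was 3.59% for HoxA, 6.77% for HoxB, 11.7% for HoxC, 12.7% for HoxD, 7.61% for anterior, 11.5% for central and 7.89% for posterior genes. At 5 or more counts Hox genes stood at 1.04%, with a difference of -0.956 points from all other genes and of -0.517 points from homeobox genes outside the clusters, both turned in sign. HoxA then stood at 0.278%, HoxB at 1.10%, HoxC at 1.20%, HoxD at 1.23%, anterior genes at 0.397%, central genes at 1.68% and posterior genes at 0.748%. Thinning gave 19.3% for HoxD, 11.1% for anterior and 13.1% for posterior genes. With only genes found in at least 3 cells, the lead over all other genes was 2.86 points and the difference from homeobox genes was -0.0120, turned in sign; this filter leaves 29 members. The mean level was -1.43 with a pseudocount of 0.1 and 3.93 with 10. Of 105 recomputed values, 80 moved by less than the SD over rats, among them central genes at 2 or more counts and all values that left out a rat. With a rat left out, values ran from 16.5% to 23.6% for Hox genes and from 5.52 to 8.91 points for the lead over all other genes. The cause of each change was not tested, beyond the lower counts, fewer genes or fewer cells that the settings themselves impose. The 2 Hoxa11 rows and the comparison by span were added after the data were seen. No paired analysis was possible because there was 1 group of samples, with no second group to pair; differences between gene lists were taken within each rat. Depth limits single genes, since most have 0 to a few counts per cell.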
